A study of Mus musculus with 8 samples.

Results

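The genes described here are 10 regulators and surface proteins of the first vessels and blood of the mouse embryo: Kdr, Cdh5, Pecam1, Tek and Tie1, which mark endothelium, and Tal1, Etv2, Runx1, Lmo2 and Gata2, which act where endothelium gives rise to blood. They were chosen by name, as every non-control probe whose RefSeq accession belongs to 1 of the 10 genes, which gave 13 of the 55681 distinct probes on the array. Kdr, Etv2 and Runx1 each had 2 probes. Each of 8 whole embryos, taken at embryonic day 8.5 (E8.5), was measured on 1 one-colour Agilent array. All 8 embryos, controls included, were heterozygous for Eedl7Rn5-1989SB, a hypomorphic allele of Eed on a C57bl6/129 background. EED is a core subunit of PRC2, the complex that methylates lysine 27 of histone H3. The mothers were wild type, and the father was Eed hypo/hypo for 4 embryos (HOM father) and Eed hypo/wt for 4 embryos (HET father). Each group held 2 female and 2 male embryos. The embryos inherited the same Eed genotype, so the comparison asked whether the Eed genotype of the father was associated with a difference in his offspring. The sires of the 2 groups were brothers of each other in pairs, and each group had fewer fathers than embryos, so some embryos of a group shared a sire. Which embryos these were was not given in the sources used here, and p-values therefore measure the spread between embryos and not between sires.

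In the mouse embryo, mesoderm that expresses the VEGF receptor KDR gives rise to the first endothelial cells and to primitive blood, in the yolk sac and in the embryo. ETV2, an ETS-family transcription factor that is active for a short time, switches on Kdr, Tal1 and other endothelial genes, while TAL1 and LMO2 work in 1 protein complex with GATA factors and E proteins. RUNX1 is needed for the later passage from endothelium to definitive blood, and GATA2 for the growth of blood progenitors. At E8.5 the blood islands are full of primitive red cells, and vessels are forming throughout the embryo.

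The windows of 250 bases before the RefSeq transcription start are printed for 3 of the members. Etv2 is shown as the factor at the head of this programme, Kdr as its target and the member with the 2 most discordant probes, and Runx1 because it starts from 2 promoters and carried 2 probes. Each is written 5′ to 3′ on the strand of the gene, which is the minus strand for all 3, on build GRCm38.p6. Capitals mark matches to 5 short motifs searched on both strands, which were GATAAG, the ETS cores CAGGAA and CCGGAA, and the E-boxes CAGCTG and CATCTG.
Etv2 (chr7:30635853-30636102): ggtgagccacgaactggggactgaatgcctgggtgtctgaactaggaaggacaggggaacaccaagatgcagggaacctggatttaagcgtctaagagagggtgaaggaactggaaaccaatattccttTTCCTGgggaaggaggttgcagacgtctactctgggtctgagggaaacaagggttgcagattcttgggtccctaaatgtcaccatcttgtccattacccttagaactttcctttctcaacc
Kdr (chr5:75978456-75978705): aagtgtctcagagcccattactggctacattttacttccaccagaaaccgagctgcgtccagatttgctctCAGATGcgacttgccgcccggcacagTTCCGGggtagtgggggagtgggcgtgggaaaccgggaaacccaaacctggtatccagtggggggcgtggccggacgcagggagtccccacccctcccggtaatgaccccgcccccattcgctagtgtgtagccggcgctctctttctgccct
Runx1, upstream start (chr16:92826075-92826324): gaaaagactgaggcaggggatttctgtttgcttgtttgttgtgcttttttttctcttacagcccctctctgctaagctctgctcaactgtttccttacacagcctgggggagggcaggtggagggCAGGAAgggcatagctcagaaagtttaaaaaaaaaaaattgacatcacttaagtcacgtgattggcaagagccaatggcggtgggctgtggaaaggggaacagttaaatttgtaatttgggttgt
Runx1, downstream start (chr16:92697330-92697579): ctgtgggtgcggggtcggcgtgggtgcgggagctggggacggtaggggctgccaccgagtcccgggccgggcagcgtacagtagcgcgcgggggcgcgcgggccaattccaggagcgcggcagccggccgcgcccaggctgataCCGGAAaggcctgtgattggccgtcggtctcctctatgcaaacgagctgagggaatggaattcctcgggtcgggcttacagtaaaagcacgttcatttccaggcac
All 4 windows held 1 ETS match, which was CAGGAA (read on the other strand as TTCCTG) for Etv2, CCGGAA (read as TTCCGG) for Kdr, CAGGAA for the upstream start of Runx1 and CCGGAA for its downstream start. The Kdr window also held CATCTG, read on the other strand as CAGATG. The table had 10 windows for 7 members (Kdr, Tek, Tie1, Etv2, 2 each for Tal1, Runx1 and Gata2). An ETS match was in 6 of these 10 windows and in 35.1% of all 32851 windows, an E-box in 2 of 10 and in 25.5%, and GATAAG in 0 of 10 and in 6.55%. A match is a string of letters and not a measured binding site. Cdh5, Pecam1 and Lmo2 had no window in the table. Which Runx1 start feeds which Runx1 probe was not determined.

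Signals are given as log2 of the processed intensity minus the 75th percentile of the array, so that 0 is the 75th percentile and a difference of 1 is 2-fold. The 75th percentile was an intensity of 1333 to 1632 on the 8 arrays, and 51.9% to 60.8% of spots were well above background. Arrays correlated with r from 0.988 to 0.993 within a group and from 0.982 to 0.992 between groups. All arrays of the HOM father group lay on 1 slide and all arrays of the HET father group on another, so slide and father cannot be told apart. The signal of Eed itself differed by 0.01 between the groups (adjusted p = 0.87), and as both groups carried the same allele this does not check the labels. Both Xist probes were higher in all female than in all male arrays, with mean differences of 7.79 and 6.36.

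Among the arrays, 3 of the HOM father group, and HET father replicates 3 and 4, stood apart in marker genes of other tissue. On HOM father replicate 1, Tbx4, a gene of the allantois, gave -0.68 against 2.12 to 2.42 on the other 7 arrays. The summed signal of 5 allantois and extraembryonic mesoderm markers was 19.5 there, against 29.4 to 34.8 elsewhere. On HOM father replicate 2, Ascl2, a trophoblast gene, gave 1.67 against -1.98 to -1.29 elsewhere. Prl8a2, a decidual prolactin, was 4.14 and 4.45 on HOM father replicates 2 and 3 and ran from -3.99 to 1.88 on the other 6 arrays. HOM father replicate 3 also had the lowest summed signals of erythroid markers (702, against 797 to 951 elsewhere) and of yolk sac endoderm markers (461, against 489 to 577 elsewhere). On HET father replicates 3 and 4, Gcm1, also a trophoblast gene, gave 4.52 and 4.61 against 2.91 to 3.73 elsewhere. The summed signal of 5 trophoblast markers was 26.65 and 28.29 there, against 10.27 to 20.57 elsewhere. The trophoblast marker Tpbpa and the decidual marker Prl3c1 were below background on all 8 arrays. Some results are therefore also given with 1 of these arrays left out, and some without HOM father replicates 1 and 2 together.

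On every array all 13 member probes were well above background, and all 13 passed the filter on low values. None of the 13 was called between fathers by limma at an adjusted p below 0.05, against 21.0% of the 29718 probes tested (12.3% higher and 8.69% lower with an HOM father). None was called at the study's limits, an adjusted p below 0.01 and at least 2-fold, which took in 1.27% of all tested probes. At an unadjusted p below 0.05 there were 3 of 13 (Kdr on 1 of its probes, Pecam1 and Tal1), against 34.8% of all tested probes. The 2 groups overlapped for all 13 member probes, whereas they did not overlap for 27.1% of all tested probes. The median difference of the members was -0.04 log2 units, with 5 probes above 0 and 8 below, and that of all tested probes was -0.02. Scaling each array to its median instead moved the median of all tested probes to -0.21. It called 5 of the 13 member probes, all of them lower (Kdr on its first probe, Tie1, Tal1, Etv2 and Lmo2). Of all 29718 tested probes it called 42.7%, with 2338 higher and 10351 lower.

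**Figure D1:**
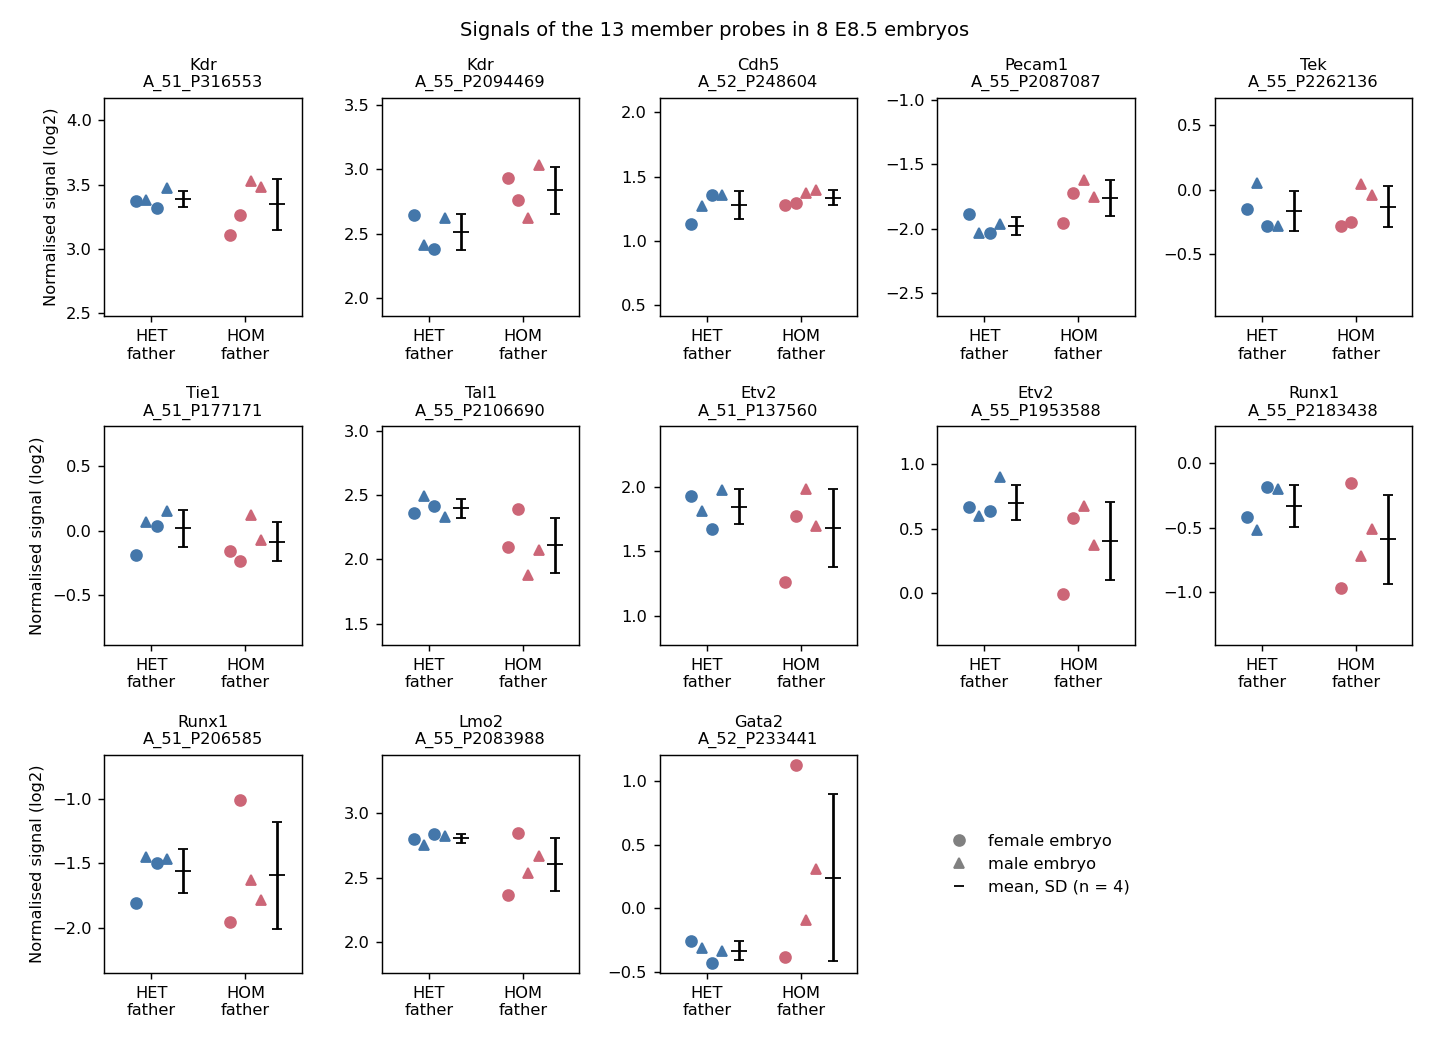
Normalised log2 signal (vertical axis) of the 13 member probes in each embryo, by father (horizontal axis). Circles are female and triangles male embryos, and the black bar gives the mean ± SD of 4 embryos. The groups overlap in every panel. The HOM father points are spread more widely than the HET father points for 12 of the 13 probes, most of all for Gata2.

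The endothelial members gave values close together in both groups. Kdr, the main receptor of VEGF-A, was measured by 1 probe with 10 spots per array and by a second probe with 1 spot. On the first probe (A_51_P316553) the signals were 3.11, 3.27, 3.53 and 3.48 in HOM father replicates 1 to 4 and 3.37, 3.38, 3.32 and 3.48 in HET father replicates 1 to 4. All 4 HET father embryos lay between the 2 female HOM father embryos, which were lower, and the 2 male ones, which were higher. Means were 3.35 ± 0.20 and 3.39 ± 0.07 (SD, n = 4), a difference of -0.04 (95% interval -0.27 to 0.19, adjusted p = 0.80). The repeated spots of this probe had an SD of 0.01 to 0.04 within an array, well below the SD of 0.20 between HOM father embryos. On the second probe (A_55_P2094469) the signals were 2.93, 2.77, 2.62 and 3.04 with an HOM father and 2.64, 2.41, 2.38 and 2.62 with an HET father. Only the lowest HOM father value, replicate 3, fell among the HET father values. The difference was 0.32 (95% interval 0.08 to 0.57, adjusted p = 0.069), the lowest adjusted p of the 13. Without HOM father replicate 3, the 1 that overlapped, it was 0.40 (adjusted p = 0.042). With scaling to the median it was 0.13 (adjusted p = 0.34). The probes of Kdr therefore gave different answers, and the sign of the first turned without HOM father replicate 1, to 0.04.

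Cdh5, which encodes VE-cadherin of endothelial junctions, was among the steadiest members. Its signals were 1.28, 1.30, 1.37 and 1.40 with an HOM father and 1.13, 1.27, 1.36 and 1.36 with an HET father. The embryos of both groups spanned only 0.27 log2 units, or 1.20-fold. The difference was 0.06 (95% interval -0.09 to 0.21, adjusted p = 0.57), and it was -0.13 with scaling to the median. Pecam1, the adhesion molecule CD31, gave -1.96, -1.72, -1.62 and -1.75 with an HOM father and -1.89, -2.04, -2.03 and -1.96 with an HET father. HOM father replicate 1 lay within the HET father values and the other 3 lay above all of them. The difference was 0.22 (95% interval 0.03 to 0.40, adjusted p = 0.092). Without HOM father replicate 1, the 1 that overlapped, it was 0.28 (adjusted p = 0.030). It was 0.03 with scaling to the median (adjusted p = 0.80) and 0.13 with quantile normalisation (adjusted p = 0.26).

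Tek and Tie1 encode the angiopoietin receptor TIE2 and its partner TIE1, which steady young vessels. Tek signals were -0.28, -0.25, 0.04 and -0.04 with an HOM father and -0.15, 0.05, -0.28 and -0.28 with an HET father. Each group held a low pair and the ranges coincided. The difference was 0.03 (95% interval -0.21 to 0.28, adjusted p = 0.86), and it was -0.16 with scaling to the median. Tie1 signals were -0.16, -0.23, 0.12 and -0.07 with an HOM father and -0.19, 0.07, 0.04 and 0.15 with an HET father, again interleaved. Its difference was -0.10 (95% interval -0.34 to 0.13, adjusted p = 0.51). Both intervals stayed well short of 2-fold.

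The haemogenic members leaned lower with an HOM father in 6 of 7 probes, with a median difference of -0.20, but none was called. Of all 29718 tested probes, 16092 were lower. TAL1 is a basic helix-loop-helix factor required for all blood. Tal1 signals were 2.09, 2.39, 1.87 and 2.08 with an HOM father and 2.36, 2.49, 2.41 and 2.33 with an HET father. HOM father replicate 2 lay within the HET father values and the other 3 below them. Means were 2.11 ± 0.21 and 2.40 ± 0.07 (SD, n = 4), a difference of -0.29 (95% interval -0.53 to -0.04, adjusted p = 0.096). Without HOM father replicate 2 the difference was -0.38 (adjusted p = 0.016), without HOM father replicate 3 it was -0.21 (adjusted p = 0.18), and without HOM father replicates 1 and 2 it was -0.42 (adjusted p = 0.035).

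LMO2 is the LIM-only bridge between TAL1 and GATA factors. Lmo2 signals were 2.36, 2.85, 2.54 and 2.67 with an HOM father and 2.80, 2.75, 2.84 and 2.83 with an HET father. The HET father embryos lay within 0.09 log2 units of each other, and HOM father replicate 2 was just above them while the other 3 were below. The difference was -0.20 (95% interval -0.43 to 0.03, adjusted p = 0.19), and it was -0.28 without HOM father replicate 2 (adjusted p = 0.045) and -0.12 without replicate 1 (adjusted p = 0.35).

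Etv2 was lowest in the same embryo on both of its probes. On A_51_P137560 it gave 1.26, 1.78, 1.98 and 1.69 with an HOM father and 1.93, 1.81, 1.68 and 1.98 with an HET father. On A_55_P1953588 the values were -0.01, 0.58, 0.67 and 0.37 with an HOM father and 0.67, 0.60, 0.64 and 0.90 with an HET father. HOM father replicate 1 was the low value each time. The differences were -0.17 (adjusted p = 0.47) and -0.30 (adjusted p = 0.20), and without that embryo they were -0.03 and -0.16.

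Runx1 also had 2 probes, matched to 2 RefSeq transcripts, and HOM father replicate 1 was the lowest and HOM father replicate 2 the highest array on both. On A_55_P2183438 the signals were -0.97, -0.15, -0.72 and -0.51 with an HOM father and -0.42, -0.51, -0.18 and -0.20 with an HET father. On A_51_P206585 they were -1.95, -1.002, -1.63 and -1.79 with an HOM father and -1.81, -1.45, -1.50 and -1.46 with an HET father. The HET father embryos lay inside the HOM father range on both. Differences were -0.26 (95% interval -0.66 to 0.14, adjusted p = 0.33) and -0.04 (95% interval -0.50 to 0.43, adjusted p = 0.92). The second turned to 0.08 without HOM father replicate 1 and to 0.03 without HOM father replicate 4.

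Gata2 had the widest range of any member. It gave -0.38, 1.13, -0.10 and 0.30 with an HOM father and -0.26, -0.31, -0.43 and -0.34 with an HET father. HOM father replicate 1 lay among the HET father embryos, replicates 3 and 4 were above them, and replicate 2 was far above, so that the highest and lowest arrays differed 2.95-fold. Means were 0.24 ± 0.66 and -0.34 ± 0.07 (SD, n = 4), a difference of 0.57 (95% interval -0.11 to 1.25, adjusted p = 0.21). Without HOM father replicate 2 the difference was 0.28 (adjusted p = 0.25). GATA2 is also a factor of trophoblast giant cells, and the 5 trophoblast markers differed among themselves. On the array with the highest Gata2, HOM father replicate 2, Ascl2 and Prl3d1 were at their highest (1.67 and 1.97). On the same array Gcm1, a gene of labyrinth trophoblast, gave 3.25, below the 3.55 to 4.61 of the HET father embryos. Plac1 gave 1.99 there, its highest value with an HOM father, against 1.65 to 2.045 with an HET father. Of 7 tested trophoblast probes 1 was called, the brightest of 3 for Gcm1, which fell by 1.07 (adjusted p = 0.022). The summed signal of the 5 markers was 20.6 on the array with the highest Gata2, ran from 10.3 to 20.6 with an HOM father and from 17.1 to 28.3 with an HET father. Tpbpa was below background throughout, and the part of these genes in the Gata2 result was not tested.

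**Figure D2:**
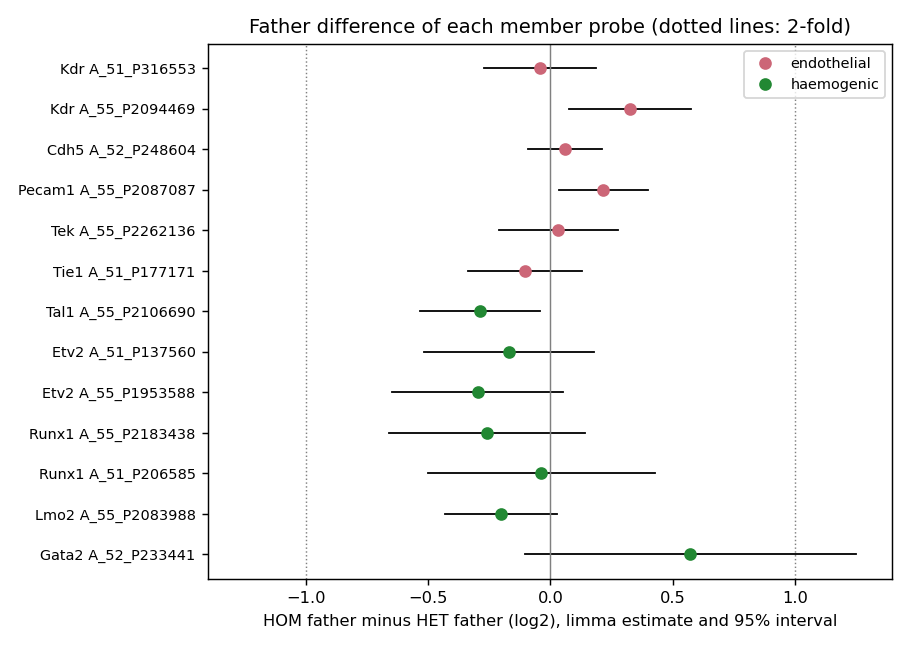
Difference in log2 signal between HOM father and HET father embryos (horizontal axis) for each member probe (vertical axis), as the limma estimate with its 95% interval, from 8 embryos. Endothelial members are red and haemogenic members green, and dotted lines mark 2-fold. The interval of 12 of the 13 probes lies inside 2-fold in both directions, and that of Gata2 reaches 1.25.

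Intervals of 12 of the 13 probes excluded a change of 2-fold in either direction, Gata2 being the exception. These are bulk measurements of whole embryos, in which fewer cells of a type and less RNA per cell cannot be told apart. Red cell markers leaned in the same direction as the haemogenic members. The summed signal of 9 primitive erythroid markers was 702 to 914 with an HOM father and 920 to 951 with an HET father. Of their 10 probes 8 were below 0 in the father difference, with a median of -0.27, beside 16092 of all 29718 tested probes. The embryo lowest in this sum, HOM father replicate 3, was also the embryo lowest in Tal1. In Lmo2 the lowest embryo, HOM father replicate 1, had the highest sum of the HOM father group (914). The embryo highest in Lmo2, HOM father replicate 2, had a sum of 797. The part of the red cell markers in the Tal1 and Lmo2 values was not tested.

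The spread within a group was compared next. The SD over 4 embryos was larger with an HOM father for 12 of the 13 member probes, Cdh5 being the exception, and for 53.5% of all tested probes. It was at least 2 times larger for 9 of 13 member probes and for 17.8% of all tested probes. All 7 haemogenic probes were among those 9, with a median ratio of 2.43. The wider spread was not particular to the members. Of 77 probes of the wider vascular and blood lists described below, the SD was larger with an HOM father for 71.4% and at least 2 times larger for 33.8%. The ratio reached 8.82 for Gata2, 5.42 for Lmo2 and 2.90 for Tal1, while it was 1.06 for Tie1 and 1.01 for Tek. Without HOM father replicate 1 the SD was at least 2 times larger for 5 of 13 member probes and 18.6% of all tested probes, without replicate 2 for 6 and 13.1%, without replicate 3 for 8 and 18.1%, and without replicates 1 and 2 for 3 and 11.5%. This is a description without a test, and the members share the same 8 arrays.

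The extremes of the mean of the haemogenic members were the 2 female embryos with an HOM father. Single members differed, as Tal1 was lowest in HOM father replicate 3 (1.87) and Gata2 in HET father replicate 3 (-0.43). In the mean of the 5 centred haemogenic members, HOM father replicate 1 was at -0.37 and HOM father replicate 2 at 0.36, whereas the 4 HET father embryos lay between 0.00 and 0.08. In the corresponding mean of the 5 endothelial members, the arrays lay between -0.13 (HOM father replicate 1) and 0.17 (HOM father replicate 3). Across the 8 arrays, Runx1 and Lmo2 had the closest patterns of the members, with Pearson's r of 0.96 (0.96 within father groups). Kdr on its first probe and Etv2 had r of 0.82 (0.84 within groups). Within groups, Pecam1 and Etv2 (0.95, but 0.30 over all arrays) and Lmo2 and Gata2 (0.94, but 0.24) were closer. Only the brightest probe of each gene was used. The second Kdr probe gave 2.93 in HOM father replicate 1, the embryo lowest in Etv2. These values describe 8 arrays that share scaling and slides, and no test was made of them.

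**Figure D3:**
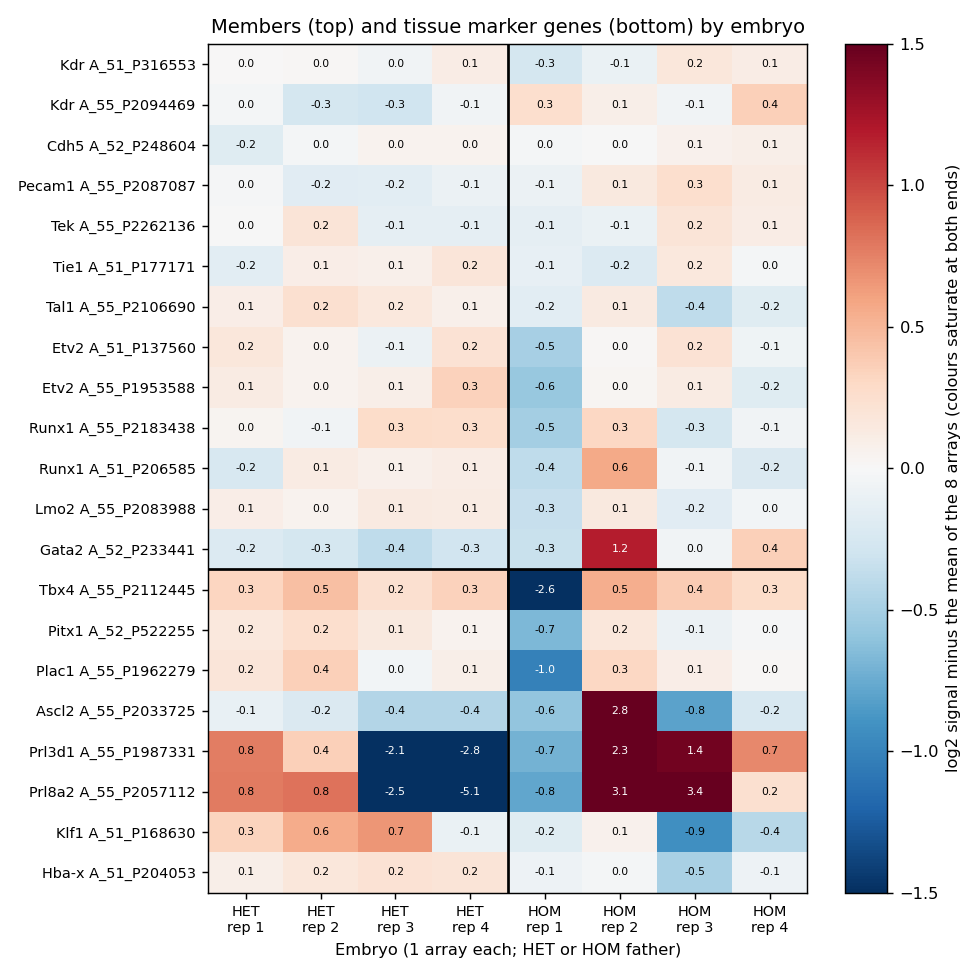
Log2 signal minus the mean of the 8 arrays for each member probe (top) and for 8 tissue marker probes (bottom), 1 column per embryo, with the value printed in each cell. Colours saturate at both ends of the scale. The column of HOM father replicate 1 is low for Etv2, Runx1, Lmo2, Tbx4, Pitx1 and Plac1, and that of HOM father replicate 2 is high for Gata2, Ascl2, Prl3d1 and Prl8a2. The 8 markers are a selection, and markers not shown went other ways. On HOM father replicate 2 the trophoblast gene Gcm1 gave 3.25 (3.55 to 4.61 with an HET father) and the decidual marker Dcn its lowest signal, 0.91. On HOM father replicate 1 the allantois marker Postn gave 1.61, above the means of both groups (1.57 and 1.33).

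Outside the members, the patterns most like the mean of the endothelial members, among 19019 probes with a gene symbol, were those of Arhgef28 (r = 0.94), Zadh2 (r = 0.93), Wipi1 (r = 0.93), Elk3 (r = 0.92) and Fstl1 (r = 0.92). Those most like the haemogenic mean were Oxct1 (r = 0.97), Coa5 (r = 0.97), Mtfr1 (r = 0.96), Plaur (r = 0.96) and Cd2 (r = 0.95). Of these 10 genes 1, the ETS-family repressor Elk3, was in the vascular lists used here.

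Sex was tested in the same 8 embryos. With father as a covariate, 0 of 13 probes were called between females and males by limma at an adjusted p below 0.05, against 0.121% of all tested probes, and 2 of 13 had an unadjusted p below 0.05, against 5.22% of all tested probes. These were Kdr on its first probe, with means of 3.27 in females and 3.47 in males (-0.20, adjusted p = 0.91), and Tie1, with means of -0.14 and 0.07 (-0.20, adjusted p = 0.91). The test of whether the father difference itself differed between the sexes called 0 of 13 member probes and 0.0639% of all tested probes. At an unadjusted p below 0.05 it took in 0 of 13 and 4.52%. With 2 embryos per sex and father, such a difference would have had to be large to be found.

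The wider pathway was taken from 6 lists of 67 genes, of which 64 were tested with 77 probes. Of these 77 probes, 3 were higher and 6 lower with an HOM father at an adjusted p below 0.05, or 11.7%, below the 21.0% of all tested probes. None reached the study's limits of an adjusted p below 0.01 and 2-fold. The median difference was -0.08, and it was -0.02 over all tested probes. The count was 5 without HOM father replicate 1 and 5 without HET father replicate 4, and 4 without HOM father replicates 1 and 2. The shares of all tested probes called in these 3 fits were 15.2%, 15% and 12.5%. With scaling to the median it was 1 higher and 34 lower, beside 2338 higher and 10351 lower of all probes.

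Ligands and receptors of the VEGF family had negative differences on all 10 probes, and on 9 of 10 without HOM father replicates 1 and 2, with a median of -0.16 over 8 arrays. Vegfa and Nrp2 each had 2 of these probes. Of all 29718 tested probes, 16092 were negative. Among the 10 VEGF probes 1 was called, against 21.0% of all tested probes. This was Vegfb, a ligand of FLT1 rather than of KDR. Vegfb signals were 1.33, 1.43, 1.35 and 1.31 with an HOM father and 1.71, 1.73, 1.81 and 1.72 with an HET father. All HOM father embryos lay below all HET father embryos. Vegfb fell by 0.39 (SE 0.05, adjusted p = 0.0016) and was called without any single array, while with position on the slide as a block the adjusted p was 0.078. Vegfa, the chief ligand of KDR, differed by -0.15 on its brighter probe (adjusted p = 0.060). The third of the VEGF receptors, Flt4, differed by -0.97 with overlapping groups (adjusted p = 0.14).

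None of the 4 probes for angiopoietins and Tie partners was called. Angpt2, a context-dependent ligand of TIE2, had the lowest adjusted p (0.21) and differed by 0.26. Among 17 probes for endothelial surface and junction genes, 2 were higher and 2 lower, or 23.5%, near the 21.0% of all tested probes. Mcam, the adhesion molecule CD146, gave 5.41, 5.74, 5.61 and 5.50 with an HOM father and 5.29, 5.06, 5.27 and 5.21 with an HET father on its brighter probe, without overlap. It rose by 0.36 on that probe (SE 0.09, adjusted p = 0.023) and by 0.27 on the other (adjusted p = 0.047). Icam2, a ligand for leukocyte integrins, fell by 0.24 (adjusted p = 0.025), and Ramp2, a subunit of the adrenomedullin receptor, fell by 0.20 (adjusted p = 0.043), each without overlap. The brighter Mcam probe was no longer called without HOM father replicate 3, HET father replicate 2 or HET father replicate 4 (adjusted p from 0.055 to 0.061), nor with scaling to the median (0.17, adjusted p = 0.20). Icam2 was not called without HOM father replicate 1 or HET father replicates 1, 3 or 4 (adjusted p from 0.051 to 0.068). The other Mcam probe was called only when HET father replicate 3 was left out, and Ramp2 only when HOM father replicate 3 was (adjusted p up to 0.11 and 0.10 otherwise).

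Of 17 probes for endothelial transcription factors 1 was called, and it was the dimmest of 3 tested Elk3 probes. It gave -2.18, -2.30, -2.15 and -2.11 with an HOM father and -2.61, -2.67, -2.88 and -2.70 with an HET father (0.53, SE 0.07, adjusted p = 0.0026). The other Elk3 probes differed by 0.05 (adjusted p = 0.81) and 0.14 (adjusted p = 0.60), so the probes of this gene disagreed. Ets2 had the lowest adjusted p of the genes on their main probe (-0.13, adjusted p = 0.073). None of 14 probes for arterial and venous signalling genes was called, the lowest adjusted p being that of Acvrl1, the receptor ALK1 (-0.33, adjusted p = 0.074).

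Among 15 probes for haematopoietic factors and surface genes, 3 fell and 12 were not called, with a median difference of -0.22. The share called was 20%, near the 21.0% of all tested probes. Tcf3 encodes the E proteins E12 and E47, the partners with which TAL1 binds DNA. On its brighter probe Tcf3 gave 2.63, 2.73, 2.87 and 2.73 with an HOM father and 2.95, 3.03, 3.12 and 3.14 with an HET father. It fell by 0.32 (SE 0.07, adjusted p = 0.016) there and by 0.40 on its other probe (SE 0.06, adjusted p = 0.0049), without overlap on either and was called on both when any single array was left out. Without HOM father replicates 1 and 2 the adjusted p was 0.094 on the brighter probe and 0.046 on the other. Kit, the receptor of stem cell factor, gave 0.73, 0.75, 0.83 and 0.77 with an HOM father and 0.92, 1.03, 1.00 and 1.13 with an HET father. Kit fell by 0.25 (SE 0.06, adjusted p = 0.019), and the adjusted p was 0.054 without HOM father replicate 1 and 0.051 without HOM father replicate 4. Other partners of the members did not pass the test. Lyl1, the closest relative of Tal1, differed by -0.22 (adjusted p = 0.096), Gata1 by -0.25 (adjusted p = 0.44), Ldb1 by -0.10 (adjusted p = 0.19) and Cbfb, the partner of RUNX1, by 0.05 (adjusted p = 0.50). Spi1, Mecom and Ptprc, genes active in definitive blood cells, were well above background on at most 1 of the 8 arrays and were not tested.

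**Figure D4:**
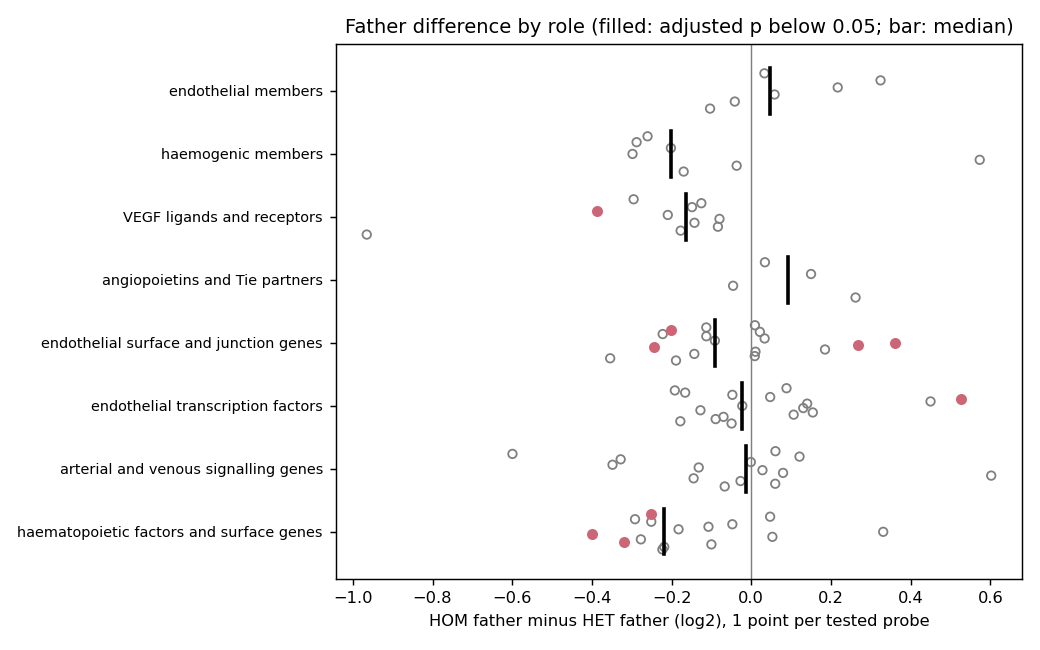
Difference in log2 signal between HOM father and HET father embryos (horizontal axis), 1 point per tested probe, for the endothelial and haemogenic members and for 6 lists of related genes (vertical axis). Filled points passed an adjusted p below 0.05, and the black bar is the median of each row. No member is filled, 9 probes of the wider lists are, and all 10 VEGF probes lie left of 0.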

How the data were processed

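RNA of 8 whole E8.5 embryos was DNase-treated, and Cy3-labelled cRNA from 0.2 µg was hybridised to 1 Agilent array each, per the labels. The deposited scanner tables hold a processed intensity per spot, on a linear scale, which the authors made with Agilent Feature Extraction version 11.0.1.1 (background subtracted), and flags of 0 or 1 (other values) for background, saturation and outliers. No scaling between arrays had been applied. The deposited series table held these intensities too, to within 0.497%.

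Of 59305 non-control spots per array, outlier-flagged spots were left out and none was saturated. Signals were converted to log2 and set relative to the 75th percentile of their array, and spots of a probe were averaged. Tests were run on probes that, on at least 4 of 8 arrays, exceeded background clearly and were not in the lowest 20% (29718 of 55681 probes, 53.4%). Accessions were matched without versions to RefSeq genes of GRCm38.p6 (27235 probes, 48.9%), used for names only, and promoter windows came from RefSeq on the same build. The number of arrays limits the precision.

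Father, sex (with father as a covariate) and their interaction were tested in limma (version 3.58.1, R 4.3.3; two-sided, Benjamini-Hochberg over all tested probes). The scripts were tested on simulated data. All 10 members were named with every probe. From each wider list, up to 2 genes that rose and 2 that fell were named among brightest probes past an adjusted p of 0.05 without overlap, or else the gene with the lowest adjusted p. Vegfa, Flt4, Lyl1, Gata1, Ldb1, Cbfb, Elk3 and the second probes were named after their values were seen. The result for 1 marker gene is not reported here. The members and lists were chosen with earlier results of these data known. The alternatives were other scalings, background correction, filters, variance models, covariates, blocks, the table of the whole series and each array left out. Correction with normexp used the median signal, since the files hold no mean signal, and this and the fit without 2 arrays were chosen after seeing the data.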

Additional observations from a re-analysis of the deposited data

Results flagged for a closer look

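Runx1 on probe A_51_P206585 was -1.81 in HET father replicate 1, while the other HET father embryos lay between -1.50 and -1.45. The gap to the nearest embryo was 0.869 of the range of the group, above Dixon's 95% limit for 4 samples. It was 1 of 26 groups examined, and chance gives about 1 in 20. On the other Runx1 probe this embryo lay within its group.

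Kdr on probe A_51_P316553 moved in opposite directions in the sexes: both HOM father females were below both HET father females (-0.16), and both HOM father males were above both HET father males (0.08). The difference between these effects was -0.24, with an unadjusted p of 0.0996 and an adjusted p of 0.9999 in the limma interaction test. The second Kdr probe gave 0.34 in females and 0.31 in males.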

How the results depend on the processing

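No member probe was called in the analysis as reported, nor under 11 of 20 alternatives. Scaling to the median moved the median difference of all probes from -0.02 to -0.21 and called 42.7% of all tested probes. It called 5 members, all lower (Kdr on its first probe, Tie1, Tal1, Etv2 on its second probe and Lmo2), with 35 wider-list probes. Cdh5 turned to -0.13 and Tek to -0.16. Relative to that shift the members' median was again within 0.02 of all probes. Quantile normalisation called 1 (Kdr on its second probe), normexp 2 (Pecam1 and Tal1) and an intensity trend with robust estimation 1. The fit without HOM father replicates 1 and 2 called 1 (Tal1), with 4 wider-list probes. Of all tested probes these 4 settings called 19.6%, 23.3%, 23.2% and 12.5%. Without any filter on dim probes 3 of the wider-list probes were called instead of 9, and with position on the slide as a block 0 were, when 1453 of all probes were and Vegfb had an adjusted p of 0.078. Kdr on its first probe turned to 0.021 with quantile normalisation, to 0.033 with the position block and to 0.12 without both arrays, where Tie1 turned to 0.0083.

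With single arrays left out, 0 to 2 members and 5 to 9 wider-list probes were called, beside 14% to 20.6% of all tested probes. Differences ran from -0.10 to 0.039 for Kdr on its first probe, from -0.23 to 0.084 for Runx1 on A_51_P206585 and from -0.025 to 0.10 for Tek.

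Replicate numbers were not shown to pair the samples. After the group mean of each probe was subtracted, same-numbered embryos correlated at 0.19, -0.09, -0.13 and 0.15. The highest correlations with another number were 0.05, 0.21, 0.21 and 0.16, so the same number was closest for replicate 1 only. With the replicate block 1 member (Kdr on its second probe), 4 wider-list probes and 3487 of all probes were called, against 6243 without it. With a number in the sample names as a random block (consensus correlation 0.302) 0 members and 7 wider-list probes were called, against 9 without it. HOM father replicates 3 and 4 shared this number, as did HET father replicates 1 and 2, and what it marks was not given.

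No member was called by sex in any of 6 alternatives. The sex difference turned sign at values near 0 for Cdh5 (0.0038) and Pecam1 (0.030) with median scaling, for Kdr on its second probe with quantile normalisation (-0.014) and normexp (-0.0034), and for Lmo2 with quantile normalisation (-0.0094). The cause of each change was not tested. Signals near background limit the dimmest wider-list probes.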

Other observations

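Csf1r, the receptor of macrophage growth factor CSF1, was higher with an HOM father on both tested probes (0.43, adjusted p = 0.0089, and 0.77, adjusted p = 0.00044), without overlap, while the macrophage genes C1qa and Cx3cr1 were below background on all 8 arrays. Klf1, a regulator of red cell genes, differed by -0.73 (adjusted p = 0.069), Hba-x by -0.33 (adjusted p = 0.058) and Hbb-bh1 by -0.22 (adjusted p = 0.10). From the same list, Alas2 differed by -0.29 (adjusted p = 0.25) and Slc4a1 by -0.18 (adjusted p = 0.50). Both probes of the embryonic globin Hbb-y were at 0.04 (adjusted p = 0.88 and 0.91), and the other 8 probes of the list were below 0. Vcam1 was lowest in HOM father replicate 1 (-0.95 against -0.22 to 0.67 elsewhere) and differed by -0.57 (adjusted p = 0.16). The summed signal of 8 yolk sac endoderm markers ran from 461 to 577 with an HOM father and from 525 to 558 with an HET father, that of 6 cardiac markers from 125 to 161 and from 150.3 to 155, that of 3 decidual markers from 3.53 to 24.8 and from 2.62 to 6.3, that of 4 neural markers from 9.39 to 12.6 and from 10.1 to 12.8, and that of 4 paraxial mesoderm markers from 14.1 to 15.6 and from 14.7 to 17.5. These genes were chosen after their values were seen.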
